A study of Mus musculus with 6 samples.

Results

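The plasma membrane amino acid transporters examined here are 37 genes of the solute carrier families SLC1, SLC3, SLC6, SLC7, SLC16, SLC36, SLC38 and SLC43. They were chosen by name, with the glial glutamate carriers and the cystine carrier left out, and were found among 32357 loci by position. A locus was taken for a gene when it covered at least 0.5 of the union of both spans. A row was found for 36 of the 37 genes. The closest locus to Slc7a4 covered only 0.271 of the union, so Slc7a4 has no value, and Slc7a10 at 0.509 was the gene closest to the limit among those matched. The row was alone at its position for 29 genes. For the other 7 genes, 15 rows stood at shared positions and were not assigned to 1 gene.

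Cerebral cortex of Balb/c mouse embryos at E14.5 was dissociated. The cells were nucleofected with a pSuperneoGFP plasmid and plated at once in a serum-containing medium with N-2, B-27 and Glutamax, a stable source of glutamine. The plasmids encoded a non-silencing shRNA (2 libraries), Neurod2 shRNA-1 (2 libraries) or Neurod2 shRNA-2 (2 libraries), and total RNA was collected at 4 days in vitro per the sample labels and at 5 per the study's methods. NEUROD2 is a neurogenic bHLH transcription factor of cortical excitatory neurons, and the comparison asks which transcripts depend on it. Each locus of the deposited table has 1 FPKM value per group (fragments per kilobase of transcript, scaled to library size), and the knockdown value pools the 4 libraries of both shRNAs. Both are the authors' pooled values, so every ratio below has no replicate error and no test, and shRNA-1 and shRNA-2 cannot be compared. The sources do not say whether libraries came from separate cultures or which share of cells took up the plasmid.

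Neurod2 itself was listed at 105 FPKM in the non-silencing group and at 60.3 FPKM in the knockdown group, a log2 ratio of -0.80. Neuronal markers were high in both groups, with 6 of 6 measured and a summed level of 1796 FPKM without and 1924 FPKM with the knockdown. Of the 8 astrocyte markers, 5 had a single row, and they summed to 224 FPKM and 209 FPKM. Among these, Gfap (57.4 FPKM and 35.1 FPKM), Gja1 (8.40 FPKM and 6.74 FPKM) and S100b (0.404 FPKM and 0.323 FPKM) were lower in the knockdown. Slc1a3 (87.5 FPKM and 90.4 FPKM) and Aldoc (69.9 FPKM and 76.5 FPKM) were higher. Of the 6 progenitor markers, 4 had a single row, and they summed to 250.2 FPKM and 237 FPKM, mostly from Vim (142 FPKM and 140 FPKM). Pax6 and Sox2 had no matched row. Oligodendrocyte lineage markers, 6 of 6 measured, summed to 110.4 FPKM and 104 FPKM. The 3 microglial markers with a single row summed to 0.0847 FPKM and 0.220 FPKM, with C1qa and Ptprc at 0 in the non-silencing group. Endothelial markers, 5 of 6 with a single row, summed to 7.78 FPKM and 8.09 FPKM, nearly all from Slco1c1, and Cldn5 was at 0 in the non-silencing group. Fibroblast and mural markers, 7 of 7 measured, summed to 4.14 FPKM and 6.26 FPKM. Of these, Col1a1 (0.125 FPKM and 0.975 FPKM), Col3a1 (0.171 FPKM and 0.765 FPKM) and Acta2 (0.409 FPKM and 1.28 FPKM) were higher in the knockdown, and the other 4 were within 1.5-fold. The part of the marker genes in the ratios below was not tested. In such mixed cultures fewer cells of a type and less RNA per cell cannot be told apart.

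Amino acids cannot cross the membrane without carriers. Sodium coupled carriers concentrate small neutral amino acids in the cell, and exchangers then trade these for essential ones such as leucine, while separate carriers admit the cationic amino acids arginine and lysine. The supply is sensed: when amino acids run short, the kinase GCN2 favours translation of the transcription factor ATF4, which binds amino acid response elements in genes of transport, synthesis and tRNA charging. In neurons these carriers also deliver glutamine, the precursor of the transmitters glutamate and GABA. Several of the 37 genes act mainly in lysosomes or vesicles, and a pair of them carries taurine or creatine.

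Because the transporters with the lowest ratios included known ATF4 targets, bases next to start sites of transporters on the list of ATF4 targets are shown. They were chosen by this list and not by their ratio. The RefSeq promoter table (GRCm38.p6) held 26 of the 37 genes and 5 of the 8 transporters on the list. Slc7a3, Slc7a5 and Slc1a5 are not among them, so Slc7a3 and Slc7a5, with the lowest ratios on the list, have no line. Slc6a9 is among them but has no row of its own and is not shown. Each line gives the 100 bases before a start site, read 5′ to 3′ on the gene's strand, which is the minus strand for all of them. For Slc7a1 the outer of its 2 start sites is shown. The Slc3a2 start site lies inside the span of the gene and not at its outer end. Capitals mark a match to TGATGNAA, a spelling of the amino acid response element searched on both strands, and the Slc1a4 line runs 4 bases past the start site to hold the whole match.
Slc1a4 chr11:20332710-20332813: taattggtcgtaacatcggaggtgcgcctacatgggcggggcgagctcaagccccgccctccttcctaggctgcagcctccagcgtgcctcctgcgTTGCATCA
Slc7a1 chr5:148399905-148400004: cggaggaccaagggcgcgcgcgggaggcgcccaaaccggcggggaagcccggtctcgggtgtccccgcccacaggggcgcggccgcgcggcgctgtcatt
Slc3a2 chr19:8713898-8713997: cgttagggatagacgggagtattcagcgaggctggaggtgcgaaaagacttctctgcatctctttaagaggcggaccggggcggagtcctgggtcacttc
Slc38a2 chr15:96699729-96699828: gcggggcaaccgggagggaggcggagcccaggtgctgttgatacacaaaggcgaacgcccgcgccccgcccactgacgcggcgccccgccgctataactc

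The Slc1a4 match lies on the opposite strand and starts 4 bases before the start site. In the full window of 250 bases before to 50 after a start site, TGATGNAA was also present in promoters of Slc7a7, and so in 2 of the 26 transporter genes. Of all 32851 promoters there, 3.97% held it, and of all genes 4.51%. The E-box variant CAGATG, which NEUROD proteins can bind, was present in windows of 6 of the 26 genes (Slc38a9, Slc43a1, Slc6a17, Slc6a5, Slc6a9 and Slc7a8) against 17.2% of all promoters and 19.2% of all genes. Only Slc38a9, Slc6a17 and Slc7a8 of these 6 had a single row and a mean of at least 1 FPKM, too few to set the match beside the ratios. A match is a stretch of letters and not a binding site, and the windows without a match leave elements elsewhere in the gene unseen.

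Of the 29 single-row transporters, 22 had a mean level of at least 1 FPKM over both groups. At least 1.5-fold lower in the knockdown were 2 of the 22, the cationic carrier Slc7a3 and the leucine exchanger Slc7a5, and 0 were at least 1.5-fold higher. The background was the 8750 loci tested by the authors, alone at their position and with a mean of at least 1 FPKM. Of these, called all loci below, 1.5% were at least 1.5-fold lower and 0.983% at least 1.5-fold higher. With a wider limit, at which the lower group stands at or below 0.8 of the other, Slc7a1 and Slc1a4 joined them, so that 4 of the 22 were lower and 0 higher, against 4.95% and 3.33% of all loci. The median log2 ratio of the 22 was -0.10, with 14 below 0 and 8 above, and the median of all loci was -0.03, with 59% below 0.

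**Figure D1:**
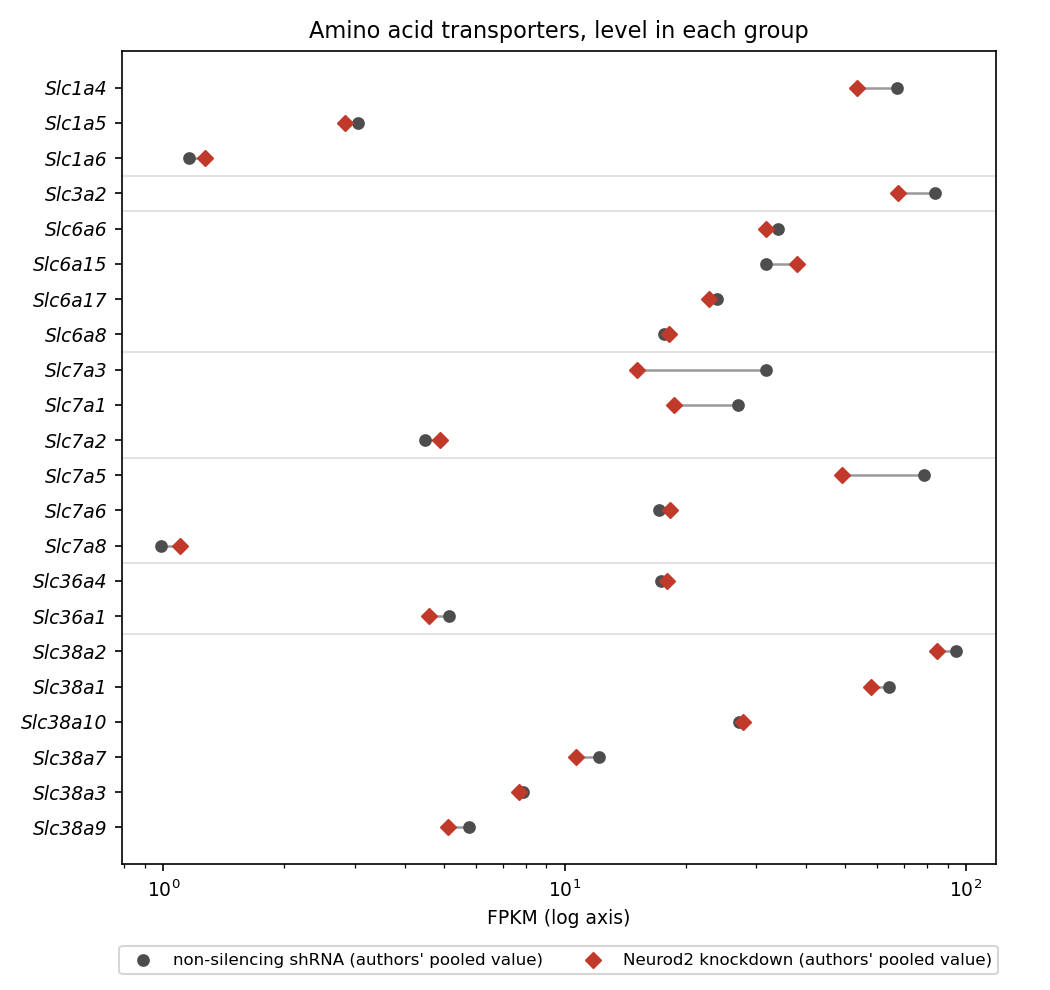
Level of the 22 single-row amino acid transporters with a mean of at least 1 FPKM, in FPKM on a log axis; circles are the authors' pooled value for the non-silencing group, diamonds that for the knockdown group, and horizontal lines divide the families. The widest gaps are those of Slc7a3 (31.8 and 15.1 FPKM), Slc7a5 (78.7 and 49.0 FPKM) and Slc7a1 (27.1 and 18.8 FPKM), with the knockdown on the lower side.

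The cationic amino acid carriers included the lowest ratio of the 22 transporters. Slc7a3, a carrier of arginine and lysine found mainly in brain (chrX:101079210-101086020, minus strand), was listed at 31.8 FPKM in the non-silencing group and at 15.1 FPKM in the knockdown group, which was 2.10-fold lower (log2 ratio -1.07). Of all loci, 0.457% had a ratio as low or lower. Slc7a1, the widely expressed cationic carrier (chr5:148327410-148399904, minus strand), was at 27.1 FPKM and 18.8 FPKM, 1.44-fold lower (log2 ratio -0.53) and just short of the 1.5-fold threshold. Slc7a2, an inducible cationic carrier, was at 4.49 FPKM and 4.88 FPKM (log2 ratio 0.12), so the 3 carriers did not move alike. Their summed level was 63.3 FPKM and 38.8 FPKM, a difference of -38.8%. Slc7a3 made up 50.1% of the sum in the non-silencing group and 39% in the knockdown group, where Slc7a1, at 48.4%, was the largest of the 3. The levels of both Slc7a3 and Slc7a1 rest on cells restored from altered entries.

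Slc7a5 and Slc3a2 encode the light and heavy chains of the exchanger that imports leucine and other large neutral amino acids. Slc7a5 (chr8:121881150-121907694, minus strand) was at 78.7 FPKM and 49.0 FPKM, 1.61-fold lower in the knockdown (log2 ratio -0.68), and 1.19% of all loci had a ratio as low or lower. Its locus also lies over Gm20388, a predicted coding gene that shares no exon bases with it. Slc3a2, which carries several light chains to the surface (chr19:8706882-8723369, minus strand), was at 83.5 FPKM and 67.6 FPKM (log2 ratio -0.31). Light chain transcript per heavy chain transcript, as a ratio of FPKM values, was 0.942 without and 0.725 with the knockdown for Slc7a5. The partner light chains were on the other side of 0. Slc7a6, which exchanges cationic for neutral amino acids, was at 17.2 FPKM and 18.3 FPKM (log2 ratio 0.09). Slc7a8, a second leucine exchanger, was near the lower limit at 0.989 FPKM and 1.10 FPKM (log2 ratio 0.16). The summed level of the 3 light chains was 96.8 FPKM and 68.4 FPKM, and the difference in Slc7a5, a loss of 29.7 FPKM, was larger than that of the sum, -28.4 FPKM.

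**Figure D2:**
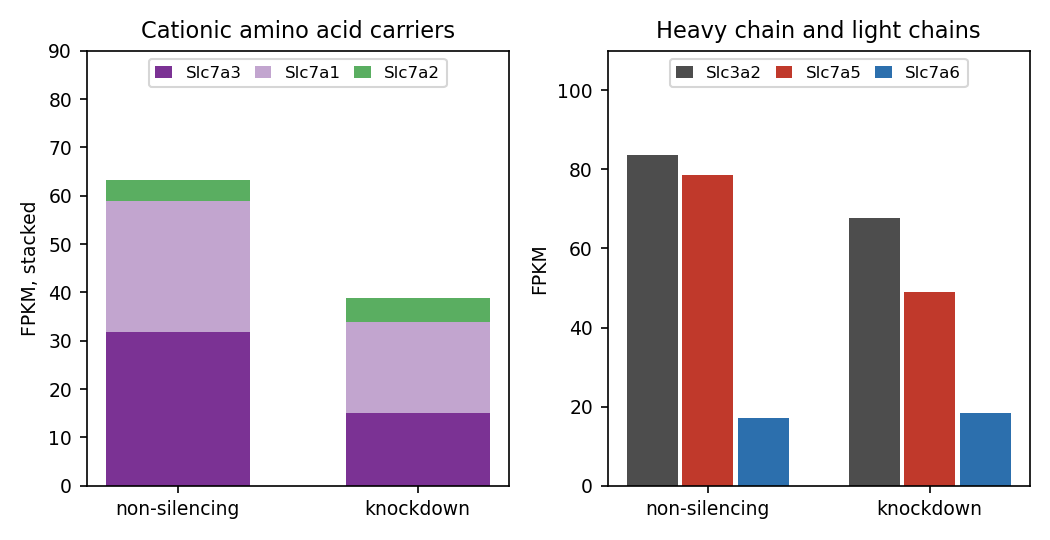
Left, stacked FPKM of the cationic carriers Slc7a3, Slc7a1 and Slc7a2 in the non-silencing and knockdown groups; right, FPKM of the heavy chain Slc3a2 and the light chains Slc7a5 and Slc7a6, each bar being 1 pooled value with no error. The stack is 63.3 FPKM high without and 38.8 FPKM with the knockdown, and Slc7a5 stands at 78.7 and 49.0 FPKM beside a smaller gap for Slc3a2.

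The neutral exchangers of the SLC1 family were led by Slc1a4, an exchanger of serine, alanine and threonine (chr11:20302180-20332713, minus strand), whose promoter match is printed above. It was at 67.2 FPKM in the non-silencing group and 53.5 FPKM in the knockdown group, 1.26-fold lower (log2 ratio -0.33), and 4.65% of all loci were as low or lower. Slc1a5, the glutamine exchanger of many dividing cells, was far lower in level, at 3.06 FPKM and 2.84 FPKM (log2 ratio -0.11). Slc1a6, a glutamate carrier best known from Purkinje cells, was at 1.16 FPKM and 1.27 FPKM (log2 ratio 0.13). Slc1a4 was thus the main neutral exchanger of this family by level in both groups.

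The sodium coupled neutral carriers of the SLC38 family included the highest level of the single-row transporters, and their ratios were small. Slc38a2, which takes up alanine, serine and glutamine and is known to respond to amino acid shortage (chr15:96687392-96699730, minus strand), ranked first in both groups, at 94.5 FPKM and 84.9 FPKM (log2 ratio -0.15). Slc38a1, a neuronal glutamine carrier, was at 64.3 FPKM and 57.9 FPKM (log2 ratio -0.15). About 20% of all loci were as low as Slc38a2 or lower. Slc38a1, Slc38a2 and Slc38a4 lie in a row on the minus strand of chromosome 15, with gaps of 44478 and 295089 bp and no other coding gene between them. Slc38a1 and Slc38a2 were close to each other in ratio, whereas Slc38a4 was hardly detected, at 0.0652 FPKM and 0.155 FPKM. The lysosomal members were near 0 on the log2 scale as well: Slc38a7, a glutamine and asparagine exporter, was at 12.2 FPKM and 10.7 FPKM, and Slc38a9, the arginine sensor of mTORC1, was at 5.76 FPKM and 5.11 FPKM (log2 ratios -0.19 and -0.17). Slc38a10, a less studied relative, was at 27.2 FPKM and 27.8 FPKM, and Slc38a3, a glutamine carrier of astrocytes, was at 7.88 FPKM and 7.70 FPKM. Of the 6 SLC38 genes with at least 1 FPKM, 5 were below 0 and 0 were at or below 0.8, where 59% and 4.95% of all loci were, so these counts do not set the family apart.

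The sodium and chloride coupled SLC6 carriers included the highest ratio of the 22 transporters. Slc6a15, a neuronal carrier of branched-chain amino acids and proline (chr10:103367783-103419377, plus strand), was at 31.8 FPKM in the non-silencing group and 38.0 FPKM in the knockdown group (log2 ratio 0.26), and 4.93% of all loci were as high or higher. The taurine carrier Slc6a6 was at 33.9 FPKM and 31.7 FPKM (log2 ratio -0.10). The creatine carrier Slc6a8 was at 17.7 FPKM and 18.2 FPKM (log2 ratio 0.04). The vesicular neutral amino acid carrier Slc6a17 was at 24.0 FPKM and 22.9 FPKM (log2 ratio -0.07), so none of these 3 stood far from the median of all loci. The proton coupled carriers were similar in that respect: Slc36a4, a carrier of proline and tryptophan, was at 17.3 FPKM and 18.0 FPKM, and the lysosomal Slc36a1 was at 5.14 FPKM and 4.59 FPKM (log2 ratios 0.05 and -0.16).

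The spread of all loci depends on level, and the transporters were read against loci of like level. Among the 2610 loci with a mean from 20 to 100 FPKM, the log2 ratio at the lowest 2.5% was -0.37 and that at the highest 2.5% was 0.21. Slc7a3, Slc7a5 and Slc7a1 lay below the first of these values, Slc1a4 and Slc3a2 did not, and Slc6a15 lay above the second. From 5 to 20 FPKM the same points were -0.36 and 0.26, and from 1 to 5 FPKM they were -0.57 and 0.59. All transporters at those lower levels lay between them. These points describe how loci scatter between the pooled values and are not an error of any 1 gene.

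**Figure D3:**
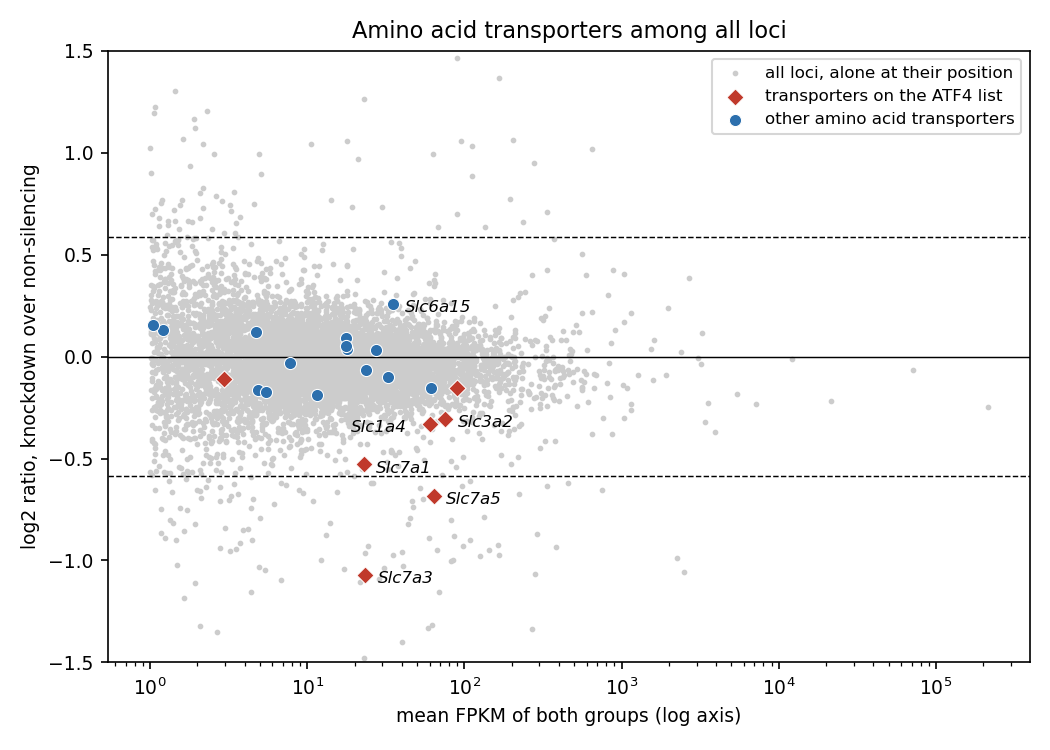
Log2 ratio of the knockdown over the non-silencing group against mean FPKM on a log axis. Grey points are the 8750 loci tested by the authors, alone at their position and with a mean of at least 1 FPKM. Red diamonds are the transporters on the list of ATF4 targets, and blue circles are the other amino acid transporters. Dashed lines mark 1.5-fold, and 42 loci lie beyond the vertical axis at 1.5. Slc7a3 and Slc7a5 lie below the lower dashed line, Slc7a1 lies just above it, and no transporter lies above the upper one.

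The 22 transporters were also split by a list of 8 known ATF4 targets, of which Slc1a4, Slc1a5, Slc3a2, Slc7a1, Slc7a3, Slc7a5 and Slc38a2 had a single row and Slc6a9 did not. All 7 were below 0, from -1.07 to -0.11, with a median log2 ratio of -0.33, where 59% of all loci were below 0. At or below 0.8 of the non-silencing level were 4 of the 7, against 4.95% of all loci. Of the 15 transporters outside the list, 7 were below 0 and 8 above, the range was -0.19 to 0.26, the median was 0.03 and 0 passed the limit of 0.8 in either direction. The list was drawn up with earlier results of these data known, so the split describes them. In summed level the 7 stood at 386 FPKM and 292 FPKM, a difference of -24.4%. All 22 single-row transporters outside the list, low ones included, stood at 274 FPKM and 271 FPKM, a difference of -1.16%. Over the 29 single-row transporters the sum was 660 FPKM and 562 FPKM, and Slc7a5 made up 30.5%, Slc7a3 17.1%, Slc3a2 16.4% and Slc1a4 14.1% of the net difference.

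Other genes of the amino acid response were set beside them. Of 40 such genes without transport function (regulators, enzymes of amino acid synthesis and tRNA synthetases), 28 had a single row and at least 1 FPKM. At least 1.5-fold lower were 9 of the 28 and 0 were at least 1.5-fold higher, against 1.5% and 0.983% of all loci. With altered cells left out, 3 of 21 were lower, so most of the 9 rest on restored cells. This list too was drawn up with earlier results of these data known, so its counts only describe them. The study itself names Chac1, Sesn2, Ddit4 and Pck2 among the genes perturbed in this comparison. The median log2 ratio of the 28 response genes was -0.37, and that of all loci was -0.03. Atf4 itself, whose control is mostly translational, was at 193 FPKM and 150.3 FPKM (log2 ratio -0.36). The glycyl-tRNA synthetase gene Gars was at 139 FPKM and 107 FPKM. Asns, asparagine synthetase, was at 132 FPKM and 86.2 FPKM, 1.53-fold lower. The lowest ratios of this list were those of Pck2, the mitochondrial PEP carboxykinase (9.23 FPKM and 4.32 FPKM), of the translation inhibitor Eif4ebp1 (23.1 FPKM and 11.2 FPKM) and of the pseudokinase Trib3 (1.97 FPKM and 0.971 FPKM). Their log2 ratios were between -1.10 and -1.02, close to that of Slc7a3. The other 5 were the glutathione-degrading enzyme Chac1 (30.8 FPKM and 15.8 FPKM), the mTORC1 inhibitors Sesn2 (17.7 FPKM and 10.1 FPKM) and Ddit4 (63.9 FPKM and 40.9 FPKM), the secreted Stc2 (11.4 FPKM and 7.21 FPKM) and the folate enzyme Mthfd1l (8.26 FPKM and 5.38 FPKM, with the small RNA gene Gm25515 in its locus).

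**Figure D4:**
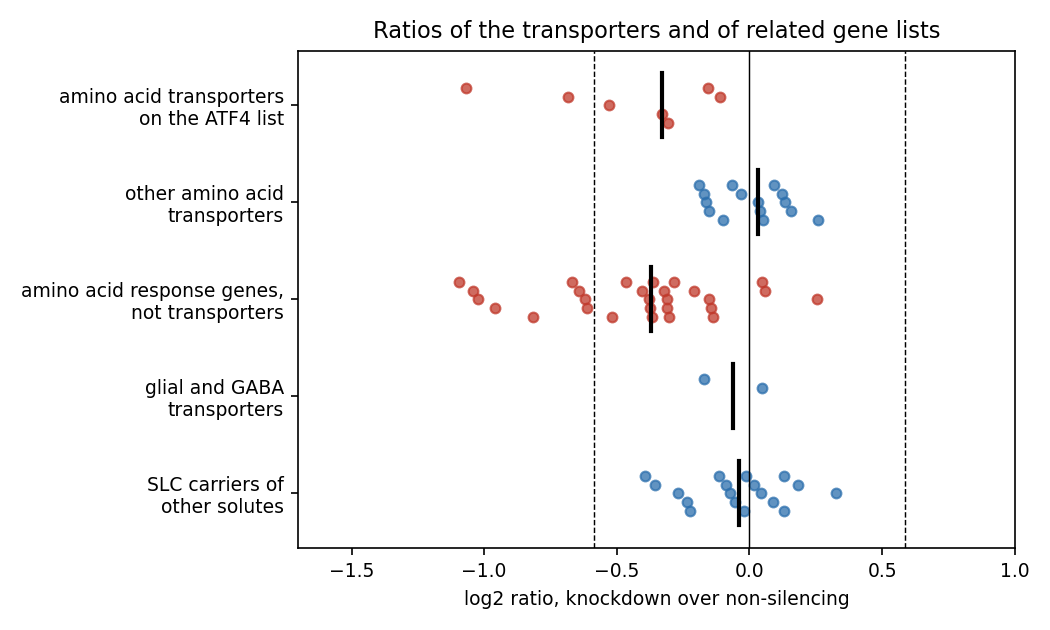
Log2 ratio of the knockdown over the non-silencing group for genes with a single row and a mean of at least 1 FPKM, 1 point per gene, in 5 lists; black bars are medians and dashed lines mark 1.5-fold. The medians are -0.33 for transporters on the list of ATF4 targets, 0.03 for the other amino acid transporters and -0.37 for the amino acid response genes.

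Carriers of other solutes gave a median close to that of all loci. Of 25 such genes, 18 had a single row and at least 1 FPKM, and their median log2 ratio was -0.04. Of these 18, 2 were at or below 0.8 of the non-silencing level and 1 passed the same limit in the other direction, against 4.95% and 3.33% of all loci. They were the bicarbonate carrier Slc4a10 (8.63 FPKM and 6.58 FPKM), the sodium-calcium-potassium exchanger Slc24a2 (1.49 FPKM and 1.17 FPKM) and, higher in the knockdown, the potassium-chloride carrier Slc12a5 (6.84 FPKM and 8.58 FPKM), all named after their values were seen. The sodium-calcium exchanger Slc8a1 was at 112 FPKM and 111 FPKM, Slc22a17 at 58.0 FPKM and 54.5 FPKM, and the phosphate carrier Slc20a1 at 47.0 FPKM and 51.4 FPKM. The glutamate carrier Slc1a3 (87.5 FPKM and 90.4 FPKM) and the GABA carrier Slc6a11 (15.3 FPKM and 13.6 FPKM) did not pass the limit of 0.8 in either direction.

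The 7 transporters whose position is shared are given row by row. The glycine carrier Slc6a9 shares its locus with B4galt2 and Ccdc24, and the rows there were at 10.4 FPKM and 6.77 FPKM (1.54-fold lower) and at 33.3 FPKM and 30.9 FPKM. The table does not name the row of Slc6a9, the only gene of the ATF4 target list without a row of its own. Rows of the single-row transporters are numbered through the plus strand of a chromosome before its minus strand. If that order holds here, the row at 10.4 FPKM and 6.77 FPKM lies on the plus strand, which is that of Slc6a9. This was not tested, and the row entered no count of single-row genes. Slc1a1, the neuronal glutamate carrier, has 3 rows beside 4430402I18Rik and Plpp6, at 25.3 FPKM and 26.9 FPKM, at 5.89 FPKM and 6.10 FPKM, and at 0.661 FPKM and 0.755 FPKM. Their log2 ratios were 0.09, 0.05 and 0.19, all above 0. The cystine heavy chain Slc3a1 shares its position with Prepl, with rows at 42.7 FPKM and 43.3 FPKM and at 0.184 FPKM and 0.0868 FPKM. Slc7a7, a light chain for cationic amino acids, lies with Oxa1l at rows of 20.1 FPKM and 18.8 FPKM and of 0.389 FPKM and 0.394 FPKM. Slc7a10, an exchanger of small neutral amino acids, lies with Lrp3 at rows of 34.4 FPKM and 32.2 FPKM and of 0.904 FPKM and 0.870 FPKM. In each of these 3 pairs, 1 row was high and 1 was low. If the same order of row numbers holds there, the low row lies on the transporter's strand in each pair. The table does not name the genes, and the rows were not assigned. The lysosomal Slc7a14 had rows at 5.25 FPKM and 4.51 FPKM and at 0.0865 FPKM and 0.129 FPKM. The uniporter Slc43a2 had a row at 2.91 FPKM and 2.99 FPKM and another listed at 0 in both groups, and the microRNA gene Mir3971 lies inside it.

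The remaining 7 single-row transporters had a mean under 1 FPKM and entered no count. The aromatic amino acid uniporter Slc16a10 was at 0.904 FPKM and 0.595 FPKM (1.52-fold lower), with the small RNA gene Gm25613 inside its locus. The leucine uniporter Slc43a1 was at 0.671 FPKM and 0.578 FPKM, Slc38a6 at 0.621 FPKM and 0.775 FPKM, and the proline carrier Slc6a7 at 0.519 FPKM and 0.413 FPKM. The glycine carrier of inhibitory neurons Slc6a5 was at 0.0166 FPKM and 0.00778 FPKM, and Slc38a5 was listed at 0 and at 0.0233 FPKM. At such levels a ratio of FPKM values has little meaning without the counts behind it.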

How the data were processed

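RNA was measured in 6 libraries of primary cortical cultures, 2 with the non-silencing shRNA and 4 with an shRNA against Neurod2. Reads were mapped to mm10 with TopHat, transcripts were assembled with Cufflinks and the groups were compared with Cuffdiff, as named in the study's methods or in the submitters' processing notes. Not given in the sources used here are versions, the annotation and the strand setting. The deposited table has 32357 loci with 1 FPKM value per group, which the authors normalized for transcript length and library size. It also holds the authors' own log2 fold change, test statistic, p-value and q-value, which are not reported. No value of a single library was used, so no SD, interval or test could be made, and the read depth behind each FPKM value is unknown.

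A spreadsheet had turned many cells of the deposited table into times of day. For each altered locus the numbers that could have given the cell were listed, and the pair whose ratio matched the deposited log2 fold change within 2e-05 was kept. The log2 column served only as this key. Of the 13498 loci tested by the authors, 4871 had a restored value and 34 were left open. Values were restored for 8 of the single-row transporters (Slc1a5, Slc6a8, Slc6a17, Slc7a1, Slc7a3, Slc7a6, Slc36a4 and Slc38a7) and for 2 rows at shared positions. Tested on simulated data with 8501 altered loci, the step returned the true pair for 99.6%, no pair for 0.447% and a wrong pair for 0. The simulated cells were altered by the same rules that the step undoes, so this score could not reveal alterations of another kind. The simulated log2 values were left intact, and the simulated non-silencing levels covered a narrow range. The non-silencing levels of Slc7a3 and Slc7a1 lay above that range.

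The table gives positions without gene names. A position was matched to a gene of GENCODE M21 (GRCm38, the assembly of mm10) where their spans overlapped by at least 0.5 of their union. Ratios were taken without a pseudocount for genes whose row was alone at its position and whose mean FPKM over both groups was at least 1. The 8750 loci used as background met the same limits of position and mean FPKM. They also had to be tested by the authors and needed no match to a gene. Ratios past 1.5-fold were counted, as were those at which the lower group stood at or below 0.8 of the other. Promoter sequences and start sites came from RefSeq (GRCm38.p6). All 37 transporters and Neurod2 are named, and of the other lists the members past 1.5-fold and the 3 with the highest mean FPKM. The transporters and all gene lists were chosen with earlier results of these data known, so their counts are descriptions. From the lists of other carriers, 2 genes are not reported here and were left out of their counts and medians. Python 3.11.15 was used.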

Additional observations from a re-analysis of the deposited data

How the results depend on the processing

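Each table value is 1 pooled FPKM value per group, so no result could be recomputed without a replicate. No paired analysis was possible because the table carries no column of a single library, and the fits that leave out a library or add a replicate block were not run. The 6 summary values (counts past the threshold of transporters and of response genes, and 3 medians of log2 ratios) were recomputed under 11 other settings. A median was taken as moved beyond 0.1 on the log2 scale and a count beyond 1.5 times. Requiring an overlap of 0.8, keeping tested loci only, or leaving out loci with small RNA genes or shared exons removed none of the 22 transporters. These settings could therefore not move the values of the transporters, and the fold threshold does not enter the medians. The response genes were not filtered again for the overlap, for tested loci or for shared positions, so their count could not move there. With the limit of 0.8 the transporters counted as lower were 4 and the response genes 17, and with 2-fold they were 1 and 3. Without a minimum FPKM, 4 transporters were lower and 1 higher, since Slc16a10, Slc6a5 and Slc38a4 entered with means under 1 FPKM. With altered cells left out, 1 of 14 transporters (Slc7a5) and 3 of 21 response genes were lower, because the restored genes, Slc7a3 among them, dropped out. Counting all 31 rows of at least 1 FPKM, shared positions included, was chosen after seeing the data and gave 3 lower, 1 of them a row at the Slc6a9 locus. A pseudocount of 1 FPKM or centring on the median of all loci kept the sign of all 22 ratios and the 2 transporters counted as lower. The median of transporters outside the ATF4 target list, 0.03, was -0.03 both without a minimum FPKM and with a minimum of 5. The depth of each library is unknown, so the precision of low levels is too.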
